A study of Rattus norvegicus with 8 samples.

Results

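The CXC chemokine ligands are a family of small secreted proteins that attract leukocytes. The genes described here are Cxcl1, Cxcl2, Cxcl3, Cxcl9, Cxcl10, Cxcl11, Cxcl12, Cxcl13, Cxcl14 and Cxcl16, and every probe set annotated to exactly 1 of these symbols was taken. This gave 18 probe sets for 10 genes, out of 31042 probe sets and 14217 named genes on the array. RNA of the ventral prostate of male Sprague-Dawley rats was measured on 8 expression arrays in 4 groups of 2. Whole ventral prostate came from control and vinclozolin lineage rats at 180 days of age, and prostate epithelium from control and vinclozolin lineage rats at 45 days. Vinclozolin is a fungicide with antiandrogenic activity. Pregnant founder females received intraperitoneal injections on days 8 to 14 of gestation, and the males studied were of generation 3. The lineages are those of the sample titles, because the treatment protocol of all 8 samples names only the vehicle, DMSO. Each epithelium sample pooled 11 animals and each whole prostate sample several. The labels do not state whether the pools of a group held different animals. The p-values below therefore reflect only spread between the 2 pools of a group, part of which may be technical. The fit shared that spread over all 4 groups and drew it towards that of all probe sets.

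CXC ligands act through G protein-coupled receptors and are held on heparan sulphate at the cell surface and in the matrix. Cxcl1, Cxcl2 and Cxcl3 bind Cxcr2 and draw neutrophils, and their genes are classic targets of NF-kappaB. Cxcl9, Cxcl10 and Cxcl11 are induced by interferons and draw activated T cells through Cxcr3. Cxcl12, which binds Cxcr4 and the scavenger receptor Ackr3, Cxcl13, which draws B cells through Cxcr5, and Cxcl14 are made in resting tissues. Cxcl16 is made as a transmembrane protein, is shed by proteases and binds Cxcr6.

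The labelled preparations were checked against marker genes. Luminal epithelial markers were plentiful in both, with a summed intensity of 19269 to 19914 on the whole prostate arrays and 19696 to 20381 on the epithelium arrays. Probasin (Pbsn), the androgen-dependent secretory protein of the rat prostate, read 6515.9 to 8027.8 on all 8 arrays. The epithelium arrays also carried stromal RNA. Smooth muscle markers summed to 1966 to 2537 in whole prostate and 13033 to 15122 in epithelium, and fibroblast markers to 3528 to 3842 and 10671 to 11587. In bulk RNA, fewer cells of a type and less RNA per cell cannot be told apart. A sign of RNA quality, the signal of the 3' beta-actin control probe set over the 5' one, was 3.74 and 3.98 in whole prostate control, 3.37 and 3.14 in whole prostate vinclozolin, and 2.26 to 2.57 in epithelium.

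Levels below are the deposited intensities, given in the order control replicates 1 and 2, then vinclozolin replicates 1 and 2. Changes are log2 differences of log2(intensity + 16) after quantile normalisation, ± the standard error (SE) of limma's fit with n = 2 arrays per group, and changes of dim probe sets are understated on this scale. Calls were made at an adjusted p of under 0.05, over the 21729 probe sets that passed the filter on low values. Of the 18 CXC probe sets, 14 passed it, with at least 1 for each of the 10 genes. The other 4 belonged to Cxcl3.

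Cxcl1 encodes a neutrophil chemokine (CINC-1 in the rat). In whole prostate its intensities were 11.3, 2.1, 2.1 and 16.5, at the 8.56th to 33.6th percentile of probe sets on those arrays. In epithelium they were 1920.1, 1827.0, 1459.3 and 1458.9, at the 97.5th percentile or higher. Whole prostate and epithelium arrays did not overlap, and in epithelium both vinclozolin arrays were below both control arrays. The lineage change was 0.07 ± 0.32 in whole prostate (adjusted p = 0.937) and -0.35 ± 0.32 in epithelium (adjusted p = 0.733).

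Cxcl2, the neutrophil chemokine also known as MIP-2, had the same arrangement. Its intensities were 11.6, 0.6, 3.1 and 8.5 in whole prostate and 279.4, 240.7, 136.5 and 184.9 in epithelium. The lineage groups were interleaved in whole prostate, and in epithelium the vinclozolin arrays were the lower pair. The change was -0.03 ± 0.30 in whole prostate and -0.67 ± 0.30 in epithelium, where it was not called (adjusted p = 0.468, 95% interval -1.39 to 0.05).

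Cxcl3, the third of these neutrophil chemokines, was dim on every array. Its 1 tested probe set, 1388032_a_at, read 5.7, 30, 9.0 and 26.5 in whole prostate and 33.5, 17.7, 18.7 and 35.8 in epithelium. All 4 groups overlapped. The change was 0.00 ± 0.43 in whole prostate and 0.02 ± 0.43 in epithelium, with intervals of -1.02 to 1.03 and -1.01 to 1.04 that allow a 2-fold change either way. The probe sets that did not pass the filter, 1370633_at, 1370634_x_at, 1388033_at and 1393182_at, lay between 0.4 and 36.5 on all arrays. Cxcl1, Cxcl2 and Cxcl3 are close relatives, so a probe set of one may also bind RNA of another, 1370634_x_at in particular by the maker's suffix for shared probes.

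Cxcl1 and Cxcl2 were the members with the widest range between groups, and the stretches before their gene starts are shown because each holds a match to the NF-kappaB consensus motif, searched on both strands. The matches are in capitals, in the direction of transcription, from RefSeq (assembly GRCr8). The Cxcl1 stretch is chr14:17479370-17479430 on the minus strand, from 109 to 49 bases upstream. The Cxcl2 stretch is chr14:17467294-17467354 on the minus strand, from 99 to 39 bases upstream.
Cxcl1: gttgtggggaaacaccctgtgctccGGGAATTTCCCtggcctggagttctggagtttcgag
Cxcl2: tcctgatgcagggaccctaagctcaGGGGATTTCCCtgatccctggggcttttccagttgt
In each, overlapping matches form 1 run. The motif was found in the 250 bases upstream of 6.33% of 33469 RefSeq promoters. No promoter of Cxcl3 was used here.

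Cxcl9 encodes the chemokine MIG, induced by interferon-gamma. Its probe set 1373544_at read 33.8, 47.5, 54.0 and 67.1 in whole prostate and 34.0, 17.0, 32.6 and 30.4 in epithelium. Both vinclozolin arrays were above both control arrays in whole prostate, whereas in epithelium the groups overlapped. The change was 0.42 ± 0.20 in whole prostate (adjusted p = 0.331) and 0.18 ± 0.20 in epithelium (adjusted p = 0.794). The other probe set, 1382454_at, read 7.6, 5.7, 15.1 and 21.7 in whole prostate and 28.3, 20.2, 7.7 and 23.9 in epithelium, with changes of 0.58 ± 0.24 and -0.39 ± 0.24. Neither was called.

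Cxcl10 encodes IP-10, a ligand of Cxcr3. It read 38.8, 53.8, 106.0 and 67.3 in whole prostate and 516.9, 448.5, 390.8 and 389.9 in epithelium. The vinclozolin arrays were the higher pair in whole prostate and the lower pair in epithelium. The change was 0.66 ± 0.20 in whole prostate (1.58-fold, adjusted p = 0.150) and -0.28 ± 0.20 in epithelium (adjusted p = 0.649). Neither was called.

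Cxcl11 encodes I-TAC, the third ligand of Cxcr3. It read 18.0, 23.8, 55.7 and 68.8 in whole prostate and 68.8, 85.8, 50.1 and 61.7 in epithelium. In whole prostate both vinclozolin arrays read more than both control arrays, and in epithelium the order was the opposite. Cxcl11 rose by 1.03 ± 0.17 in whole prostate (2.04-fold, adjusted p = 0.0427), and its change in epithelium was -0.42 ± 0.17, not called (adjusted p = 0.428). The interval of the rise was 0.62 to 1.43.

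The stretches before Cxcl10 and Cxcl11 are shown because these neighbouring genes of chromosome 14 hold the other matches in this family. The Cxcl10 stretch is chr14:15988816-15988973 on the plus strand, from 250 to 93 bases upstream. The Cxcl11 stretch is chr14:15973629-15973688 on the plus strand, from 99 to 40 bases upstream.
Cxcl10: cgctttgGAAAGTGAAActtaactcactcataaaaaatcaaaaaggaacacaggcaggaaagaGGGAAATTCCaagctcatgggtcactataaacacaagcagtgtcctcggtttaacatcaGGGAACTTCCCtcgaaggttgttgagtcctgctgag
Cxcl11: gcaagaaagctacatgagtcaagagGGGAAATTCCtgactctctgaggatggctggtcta
The first capitals in Cxcl10 mark a match to the core of the interferon-stimulated response element, searched as a pair of GAAA separated by any 2 bases, which 3.41% of promoters hold on either strand. The other capitals in both genes mark the NF-kappaB consensus. The gamma-activated site TTCNNNGAA, which reads the same on both strands and is present in 7.67% of promoters, matched in Cxcl11 alone, 250 to 242 bases upstream. Promoters of 9 of the 10 genes were found. Those of Cxcl9, Cxcl12, Cxcl13, Cxcl14 and Cxcl16 held no match to these 3 motifs in the 250 bases, which says only that these letters are not there.

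Cxcl12 encodes SDF-1, a chemokine of stromal cells. Its 3 probe sets differed in pattern. Probe set 1369633_at read 195.0, 187.1, 188.0 and 190.2 in whole prostate and 427.2, 425.4, 447.8 and 361.7 in epithelium. Probe set 1388583_at read 141.6, 151.7, 121.4 and 95.2 in whole prostate and 185.9, 238.1, 210.2 and 288.8 in epithelium. On both, every epithelium array was above every whole prostate array. Probe set 1387655_at read 1.1, 0.7, 3.0 and 8.7 in whole prostate and 111.2, 107.3, 100 and 101.0 in epithelium, a far wider gap. No lineage change of Cxcl12 was called. In whole prostate the changes were 0.02 ± 0.13, -0.34 ± 0.20 and 0.37 ± 0.14 in that order of probe sets, and in epithelium -0.07 ± 0.13, 0.23 ± 0.20 and -0.13 ± 0.14. The interval for 1369633_at was narrow, at -0.31 to 0.34 in whole prostate.

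Cxcl13 encodes BLC, the chemokine that organises B cell follicles. It read 80.6, 88.8, 227.3 and 254.7 in whole prostate and 40.5, 45.8, 14.6 and 31.1 in epithelium. The 4 groups did not overlap, in the order vinclozolin whole prostate, control whole prostate, control epithelium and vinclozolin epithelium. Cxcl13 rose by 1.31 ± 0.21 in whole prostate (2.47-fold, interval 0.80 to 1.81, adjusted p = 0.0404). Its change in epithelium was -0.65 ± 0.21 (adjusted p = 0.349), not called. The 2 vinclozolin arrays of epithelium differed from each other with an SD of 0.44, against 0.12 or less in the other groups.

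Cxcl14 encodes BRAK, a chemokine of normal epithelia. Its probe set 1388485_at read 574.6, 652.7, 841.9 and 700.6 in whole prostate and 2614.3, 2400.6, 2183.8 and 2059.8 in epithelium, at the 92.8th percentile or above on every array. Vinclozolin arrays were the higher pair in whole prostate and the lower pair in epithelium. The changes were 0.33 ± 0.14 (adjusted p = 0.281) and -0.24 ± 0.14 (adjusted p = 0.587), and neither was called. The other probe set, 1396129_at, read 6.4 to 30.5 on all 8 arrays, with overlapping groups and changes of -0.31 ± 0.34 and -0.15 ± 0.34.

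Cxcl16 read 171.1, 118.5, 209.7 and 175.0 in whole prostate and 368.1, 325.5, 262.7 and 313.3 in epithelium. It too had the vinclozolin arrays as the higher pair in whole prostate and the lower pair in epithelium. The changes were 0.40 ± 0.19 (adjusted p = 0.327) and -0.26 ± 0.19 (adjusted p = 0.665), not called.

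**Figure D1:**
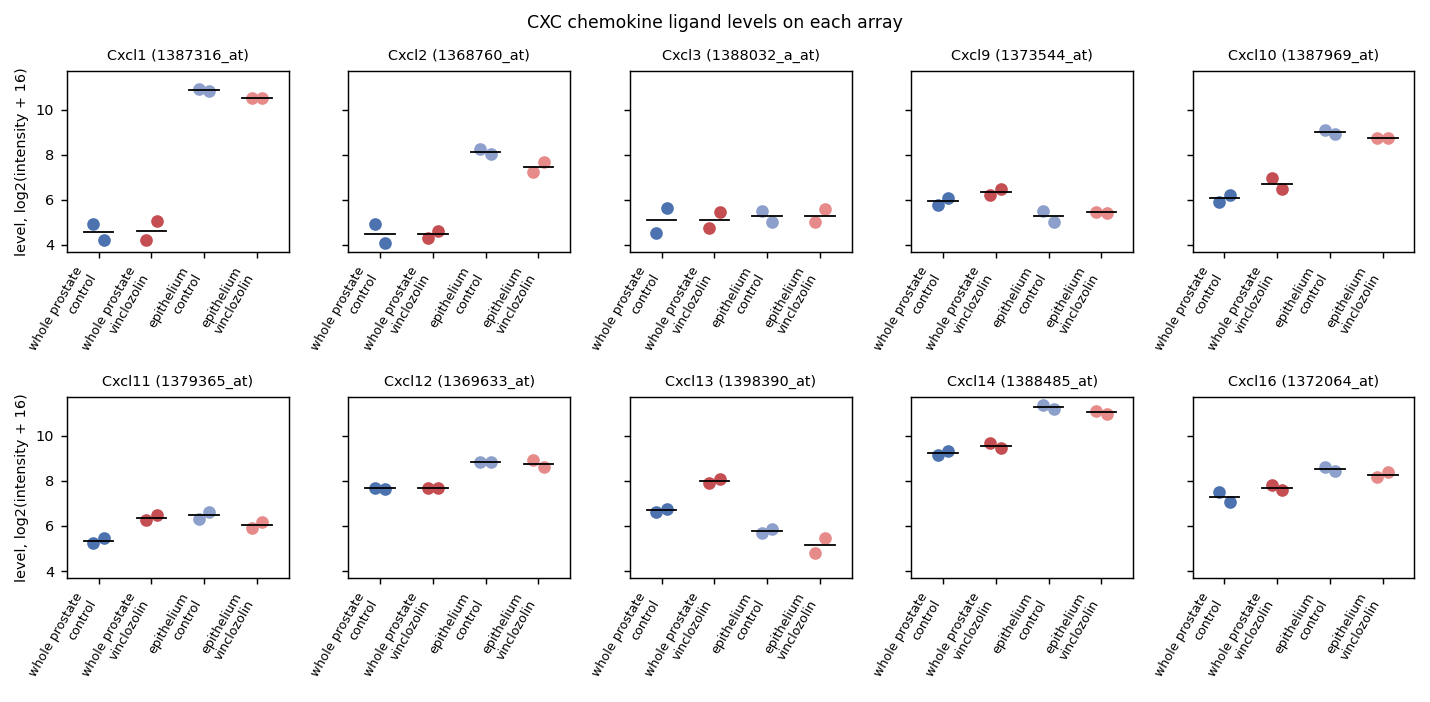
Level of each CXC ligand on each of the 8 arrays, as log2(intensity + 16) after quantile normalisation (y axis), by group (x axis), on the probe set of highest mean for each gene. Points are arrays and lines are group means. Cxcl1 lies at 4.56 and 4.62 in the whole prostate groups and at 10.87 and 10.52 in the epithelium groups, and Cxcl13 is highest in vinclozolin whole prostate, with a mean of 8.

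The first comparison asked whether the CXC ligands differed between the lineages in whole prostate at 180 days. Cxcl11 and Cxcl13 rose about 2-fold, so 2 of the 14 probe sets tested were called higher and 0 lower, against 1.74% of all probe sets called, 0.819% higher and 0.925% lower. The median change of the 14 was 0.35, beside -0.01 for all probe sets tested, and 11 were positive. The groups did not overlap for 9 of the 14, against 53.9% of all probe sets, so that count is near the background. The called members belong to different branches of the family, since Cxcl11 is interferon-induced and Cxcl13 homeostatic. All 3 interferon-induced genes had a positive change on each probe set, from 0.42 to 1.03. The tested probe sets of Cxcl1, Cxcl2 and Cxcl3 lay between -0.03 and 0.07. In whole prostate Cxcl1 (2.1 to 16.5) and Cxcl2 (0.6 to 11.6) were near the floor, and the SE of Cxcl3 was 0.43. A change near 0 there is therefore no sign that these genes were unaffected. Beside these changes, the beta-actin ratio was lower on the vinclozolin arrays, and 7 of 11 skeletal muscle markers were called lower there (median -1.59, all 11 negative). Their part in the result was not tested.

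Both calls lay near the threshold. They were lost with a pseudocount of 1 (adjusted p = 0.0614 for Cxcl11 and 0.137 for Cxcl13), without the filter on low values (0.0746 and 0.0684) and in a fit of the 4 whole prostate arrays alone (0.0901 and 0.0557), although the direction held in each. Without whole prostate control replicate 1 or 2, or vinclozolin replicate 1 or 2, the adjusted p of Cxcl11 was 0.242, 0.169, 0.109 and 0.189, and that of Cxcl13 was 0.239, 0.191, 0.125 and 0.185. Without either epithelium control array it was 0.0593 for Cxcl11 and 0.0693 for Cxcl13, and without either epithelium vinclozolin array 0.0653 and 0.026. The change of Cxcl11 ranged from 0.56 to 1.41 over all settings, and that of Cxcl13 from 1.00 to 1.45.

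The second comparison asked the same in epithelium at 45 days. None of the 14 probe sets was called by limma, against 0.00920% of all probe sets (0.00460% higher and 0.00460% lower). An unadjusted limma p under 0.05 was reached by 2 of them (11.4% of all probe sets), Cxcl13 and Cxcl11, both with a negative change. The median change was -0.25, beside 0.00 for all probe sets, and 11 of the 14 were negative. The groups did not overlap for 8 of the 14, beside 39.4% of all probe sets.

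The lineage effects in the 2 preparations use different arrays. Of the 14 probe sets, 9 had a positive change in whole prostate and a negative one in epithelium (64.3%), beside 22.4% of all probe sets tested. They were those of Cxcl1, Cxcl10, Cxcl11, Cxcl13 and Cxcl16, 1 each of Cxcl9 and Cxcl14 and 2 of Cxcl12, so some share a gene. Some of these signs carry little information. In whole prostate Cxcl1 changed by 0.07 ± 0.32 near the floor, and 1387655_at of Cxcl12 read only 0.7 to 8.7. The changes of 1369633_at of Cxcl12 were 0.02 ± 0.13 and -0.07 ± 0.13. The difference between the effects was tested directly, and 0 of the 14 were called in limma, beside 0.290% of all probe sets, with 7 at an unadjusted p under 0.05 (13.5% of all probe sets). The largest differences, epithelium minus whole prostate, were -1.96 ± 0.30 for Cxcl13 (interval -2.67 to -1.24, adjusted p = 0.0717) and -1.45 ± 0.24 for Cxcl11 (interval -2.02 to -0.88, adjusted p = 0.0873). Cxcl10 measured -0.94 ± 0.28 (adjusted p = 0.247). The differences of Cxcl13 and Cxcl11 were called with a pseudocount of 64 (adjusted p = 3.09e-03 and 0.0358), with the filter at the 50th percentile (0.03 and 0.0373) and with a trended robust prior (2.39e-03 and 0.0206). Neither was called with a pseudocount of 1 (0.193 and 0.129), without the filter (0.125 and 0.146) or with array weights (0.0677 and 0.0901). The same held with the values as deposited, median centring and the replicate block. With 1 array left out, the difference ranged from -2.27 to -1.65 for Cxcl13 and from -1.59 to -1.31 for Cxcl11. Because the preparations also differ in age, the effects of age and of preparation cannot be told apart.

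**Figure D2:**
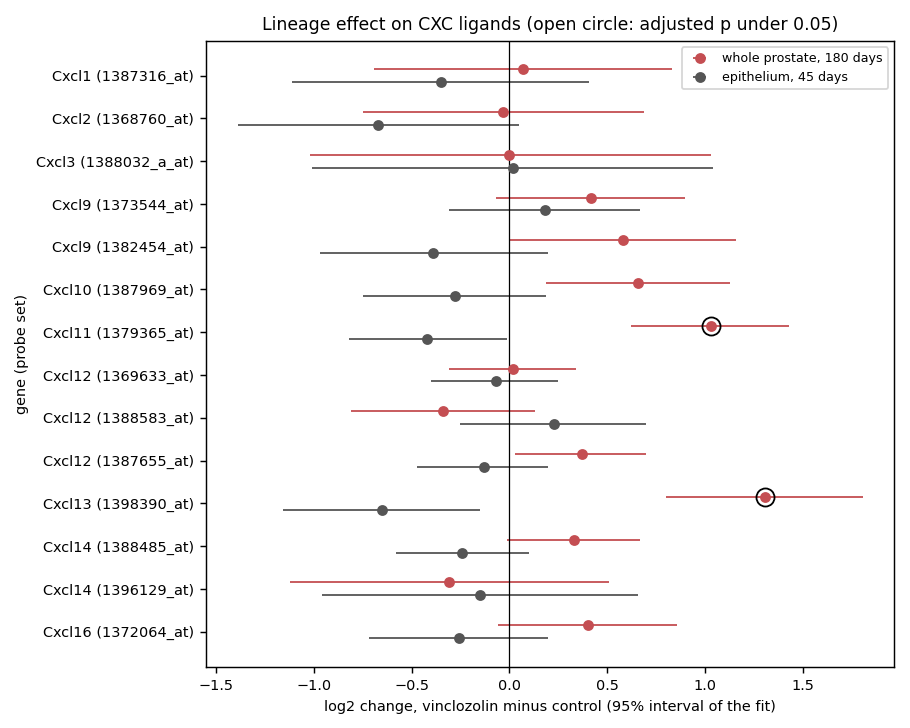
Change in level between lineages, vinclozolin minus control (x axis, log2, with the 95% interval of the fit), for the 14 CXC probe sets tested (y axis), in whole prostate at 180 days and in epithelium at 45 days, with 2 arrays per group. Open circles mark the calls, Cxcl11 at 1.03 and Cxcl13 at 1.31 in whole prostate, and no epithelium point is marked.

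The inducers and targets shared with these chemokines were read from lists of genes. Of the list for the interferon-gamma pathway and its targets, 15 of 18 genes were tested. The list includes genes that answer other interferons too, so it does not tell the interferons apart. Beside 0.819% of all probe sets called higher and 0.925% lower, 0 of these genes were called lower in vinclozolin whole prostate and 3 higher. These were Irf8 (1.47 ± 0.11, adjusted p = 3.59e-03) and Irf7 (1.26 ± 0.17, adjusted p = 0.0225), transcription factors of the interferon response, and Stat2 (0.96 ± 0.10, adjusted p = 0.0125), a subunit of the complex that binds the interferon-stimulated element. Irf9, the DNA-binding subunit of that complex, had a change of 1.02 ± 0.19, not called (adjusted p = 0.0591). The median of the 15 was 0.77 in whole prostate and -0.01 in epithelium, where 0 were called, beside 0.00920% of all probe sets. Ifng itself, the cytokine, did not pass the filter and read 0.4 to 13.7 on all arrays. NF-kappaB signalling genes and targets gave 0 calls of 24 tested in whole prostate (median 0.18), beside 1.74% of all probe sets. They gave 0 in epithelium (median -0.17). Early response genes, which a stimulus switches on quickly, gave 3 of 15 lower in whole prostate, beside 0.925% of all probe sets. These were Fos (-1.92 ± 0.12), Egr1 (-1.49 ± 0.12) and Fosb (-0.85 ± 0.10), and 0 were called in epithelium. The NF-kappaB gene of lowest p in whole prostate was Nfkbiz, an inducible member of the IkappaB family, at -0.91 ± 0.22 (adjusted p = 0.0937).

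Receptors gave no lineage call, beside 1.74% of all probe sets called in whole prostate and 0.00920% in epithelium. Cxcr3, the receptor of Cxcl9, Cxcl10 and Cxcl11, read 68.9 to 85.3 in whole prostate, with a change of -0.07 ± 0.22. Cxcr5, the receptor of Cxcl13, read 53.7 to 95.4 in whole prostate on its brighter probe set (0.06 ± 0.37) and 19.7 to 51.1 on the other (0.46 ± 0.30). Neither receptor was called where its ligand was. Cxcr4 measured 0.35 ± 0.17, 0.62 ± 0.19 and 0.04 ± 0.34 on its 3 probe sets in whole prostate, and -0.62 ± 0.17, -0.20 ± 0.19 and -0.60 ± 0.34 in epithelium. Ackr3 measured -0.39 ± 0.16 and -0.26 ± 0.16. Cxcr1, a neutrophil receptor, read 6.7 to 21.6 on all arrays and measured -0.43 ± 0.12 in whole prostate (adjusted p = 0.139) and 0.02 ± 0.12 in epithelium. Ackr1, a chemokine-binding receptor of red cells and venules, measured -0.36 ± 0.37 and 0.55 ± 0.37. Cxcr2, the receptor of Cxcl1, Cxcl2 and Cxcl3, did not pass the filter and read 2.8 to 11.7 on all arrays.

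Proteins that cut or hold CXC ligands were a further list, with 11 of 12 genes tested. In whole prostate 1 of the 11 was called higher and 1 lower, beside 0.819% and 0.925% of all probe sets. There Gpc1, the heparan sulphate proteoglycan glypican 1, rose by 1.07 ± 0.12 (adjusted p = 0.0145) and Sdc2, syndecan 2, fell by 1.00 ± 0.12 (adjusted p = 0.0189). The sheddases of Cxcl16, Adam10 (0.23 ± 0.15) and Adam17 (0.28 ± 0.18), were not called. In epithelium 0 of the 11 were called, beside 0.00920% of all probe sets, so a count of 0 says little there. Among 5 lymphoid chemokine and lymphotoxin genes tested, 0 were called for either lineage comparison, and Ccl19, a T cell zone chemokine, measured 0.60 ± 0.35 in whole prostate (adjusted p = 0.414). The other CXC ligands on the array, Pf4 and Ppbp of platelets and Cxcl6, were not called either, and Cxcl6 did not pass the filter.

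Markers of leukocytes were read beside the ligands in whole prostate. The 15 T and NK cell markers on the array summed to 290 to 317 in control and 562 to 608 in vinclozolin whole prostate. Of the 9 tested, 0 were called and 8 were positive, with a median of 0.64, and Lck, a T cell kinase, measured 0.73 ± 0.14 (adjusted p = 0.0591). B and plasma cell markers summed to 205 to 226 and 294 to 394, with 0 of 5 called and a median of 0.38. The median over all 9 of these genes on the array was 0.06. Mzb1 and Jchain, both of plasma cells, measured 1.22 ± 0.30 and 0.79 ± 0.20, and the B cell marker Cd79b lay at 1.3 to 6.3 on all arrays. Most of the rise in the sum lay in Jchain and Mzb1. Jchain read 75.5 to 79.0 in control and 142.4 to 154.9 in vinclozolin whole prostate, and Mzb1 8.9 to 17.8 and 46.3 to 61.4. Macrophage markers gave 2 of 14 called higher, Csf1r (1.11 ± 0.15) and Fcgr3a (1.17 ± 0.19), beside 0.819% of all probe sets, and 10 of the 14 were positive. Their summed intensity was 7728 to 8345 in control and 5751 to 6470 in vinclozolin whole prostate, most of it from Lyz2 and Cd14. The other 12 genes summed to 810 to 832 in control and 1360 to 1418 in vinclozolin whole prostate, the opposite direction. Neutrophil markers were near the floor, with S100a8 at 1.6 to 20.6 and S100a9 at 1.9 to 20.0 on all 8 arrays, and only 3 of 10 passed the filter. Whether leukocyte numbers had a part in the rise of Cxcl11 and Cxcl13 was not tested.

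The control groups were then compared to set the CXC ligands of 45-day epithelium beside those of 180-day whole prostate. Cxcl1 was higher in epithelium by 6.31 ± 0.32 (79.3-fold on the scale used, adjusted p = 9.35e-05), Cxcl2 by 3.63 ± 0.30 (12.4-fold), Cxcl10 by 2.95 ± 0.20 (7.75-fold), Cxcl14 by 2.04 ± 0.14 (4.11-fold), Cxcl16 by 1.24 ± 0.19 and Cxcl11 by 1.13 ± 0.17. Cxcl12 was higher by 1.16 ± 0.13 on 1369633_at and by 2.85 ± 0.14 on 1387655_at, while the change on 1388583_at was 0.50 ± 0.20, not called (adjusted p = 0.106). Cxcl13 was lower in epithelium, with a change of -0.90 ± 0.21 (adjusted p = 0.0226). Cxcl9 disagreed between its probe sets, at -0.66 ± 0.20 and 0.65 ± 0.24, neither called, and Cxcl3 measured 0.17 ± 0.43.

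In all, 8 of 14 CXC probe sets were called higher in control epithelium and 1 lower, beside 12.9% and 15% of all probe sets (27.8% called in either direction). The groups did not overlap for 12 of the 14, beside 66.6% of all probe sets, and 12 had an unadjusted p under 0.05, beside 40.1%. With median centring, 28.9% of all calls were higher instead of 46.3%, and the median of all probe sets moved from -0.05 to -0.20. These 9 calls kept their direction and stayed called with that scaling. The probe sets of Cxcl1 and Cxcl2 and 1387655_at of Cxcl12 passed the filter only through the epithelium groups, so they had to differ, and the count is a description. Sizes of these also hang on the pseudocount, with 8.01 and 4.73 for Cxcl1, 5.69 and 2.20 for Cxcl2 and 5.69 and 1.40 for that probe set of Cxcl12 at pseudocounts of 1 and 64. The call of Cxcl13 was lost with a pseudocount of 1 (adjusted p = 0.0744), without whole prostate control replicate 1 or 2 (0.0885 and 0.110) and without epithelium control replicate 1 or 2 (0.0947 and 0.0589).

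The contrast of preparations was also taken in the vinclozolin arrays, which share none with that comparison, and it was alike for some members only. Cxcl1 was higher in epithelium by 5.89 ± 0.32, Cxcl2 by 2.99 ± 0.30, Cxcl10 by 2.01 ± 0.20 and Cxcl14 by 1.47 ± 0.14, each called in limma (27.4% of all probe sets were, 13.1% higher and 14.2% lower). Cxcl1, Cxcl2 and probe set 1387655_at of Cxcl12 had to differ here too, by the filter, so their values are a description. All 3 probe sets of Cxcl12 were called higher there, at 1.08 ± 0.13, 1.07 ± 0.20 and 2.35 ± 0.14. Cxcl13 was lower, at -2.86 ± 0.21 (adjusted p = 3.74e-04), and so was Cxcl9, at -0.90 ± 0.20 on 1373544_at (adjusted p = 0.02). The other probe set of Cxcl9, 1382454_at, measured -0.31 ± 0.24, not called. Cxcl11, called higher in the control arrays, measured -0.32 ± 0.17 in the vinclozolin arrays (adjusted p = 0.205), and Cxcl16 measured 0.58 ± 0.19 (adjusted p = 0.0678).

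**Figure D3:**
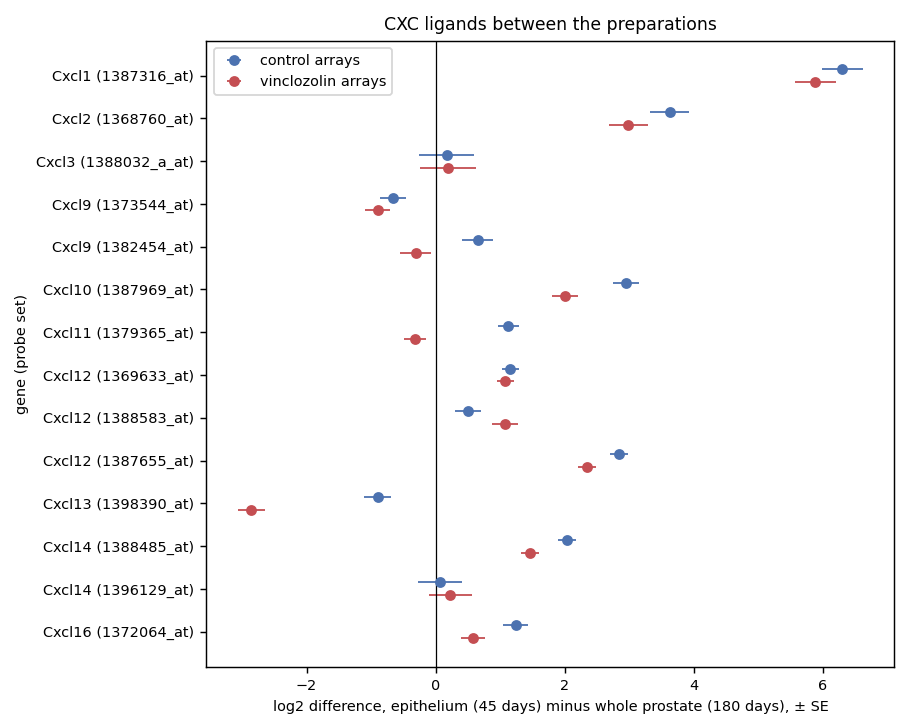
Difference between 45-day epithelium and 180-day whole prostate (x axis, log2, ± SE of the fit) for the 14 CXC probe sets tested (y axis), in the control and in the vinclozolin arrays, with 2 arrays per group. Cxcl1 lies at 6.31 and 5.89, Cxcl13 at -0.90 and -2.86, and Cxcl11 at 1.13 and -0.32.

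The early response genes were higher in control epithelium, as Cxcl1 and Cxcl2 were, whereas Cxcl3 was not called. All 15 of the list were called higher, with a median of 2.93, beside -0.05 for all probe sets, although Socs3 passed the filter only through the epithelium groups and had to differ. Fosb was higher by 4.70 ± 0.10 and Ier3 by 4.45 ± 0.10. NF-kappaB signalling genes and targets gave 13 of 24 called higher and 2 lower (median 0.83), with Ccl20, a chemokine of epithelial surfaces, at 4.88 ± 0.15, Il6 at 3.85 ± 0.21, Ptgs2, the inducible cyclooxygenase, at 3.62 ± 0.19 and Nfkbia, the inhibitor that NF-kappaB induces, at 2.67 ± 0.12. Of these 13, Ptgs2 and Tnf passed the filter only through the epithelium groups, so they too had to differ. Of the interferon-gamma pathway 2 of 15 were higher and 2 lower, a share near the 12.9% and 15% of all probe sets, with Irf1 at 2.80 ± 0.28 and Irf7 at -0.80 ± 0.17. Lcn2, which epithelia as well as neutrophils make, was the 1 neutrophil marker called higher, at 2.37 ± 0.31, while S100a8 and S100a9 were near the floor as given above. The part of these genes in the levels of the chemokines was not tested.

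The receptor of Cxcl12 was higher in epithelium together with its ligand. Cxcr4 read 4.4 to 35.0 on its 3 probe sets in whole prostate and 97.2 to 312.8 in epithelium. No epithelium array overlapped a whole prostate array on any of the 3. In the control arrays Cxcr4 was higher by 2.97 ± 0.17, 2.52 ± 0.19 and 2.53 ± 0.34 (adjusted p = 1.65e-04, 4.11e-04 and 3.28e-03), and Ackr3 by 0.86 ± 0.16 (adjusted p = 9.09e-03). Cxcr3 was lower, at -0.74 ± 0.22 (adjusted p = 0.0482). Cxcr5 (-0.66 ± 0.37 and -0.41 ± 0.30), Cxcr1 (-0.02 ± 0.12) and Ackr1 (-0.89 ± 0.37) were not called. Of the proteins that hold or cut chemokines 4 of 11 were called higher and 0 lower, beside 12.9% and 15% of all probe sets. Those higher included Gpc1 (1.79 ± 0.12), Mmp2 (1.71 ± 0.16) and Sdc1, syndecan 1 (1.40 ± 0.14). Beside the same 12.9%, 9 of 11 fibroblast markers were called higher, with a median of 1.03. Pdgfrb among them passed the filter only through the epithelium groups. Of the smooth muscle markers 6 of 8 were called higher, with a median of 2.28. Other cell types moved the same way, with 5 of 9 endothelial markers (summed intensity 294 to 303 in control whole prostate and 683 to 756 in control epithelium) and 6 of 8 basal epithelial markers (980 to 990 and 4091 to 4232) called higher. Their part in the level of Cxcl12 was not tested.

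**Figure D4:**
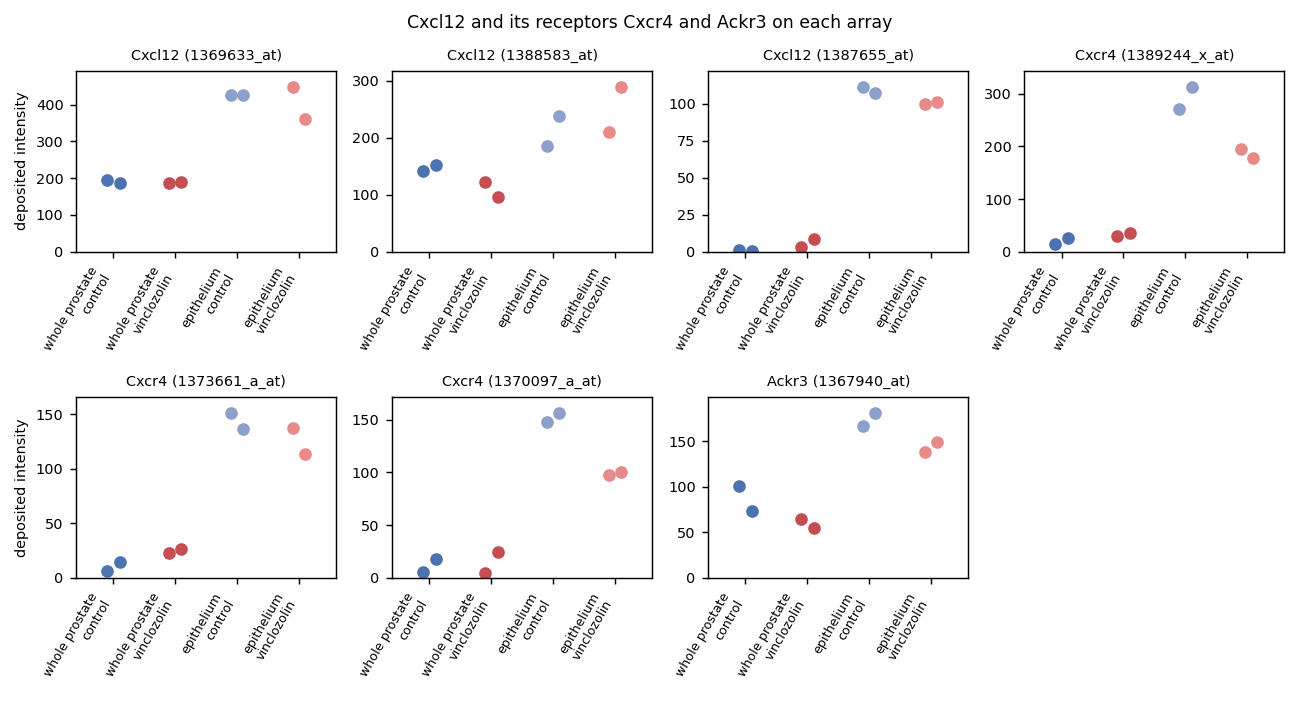
Deposited intensity (y axis, linear from 0) of the 3 probe sets of Cxcl12, the 3 of its receptor Cxcr4 and the 1 of Ackr3, by group (x axis), with 1 point per array. Probe set 1387655_at of Cxcl12 reads 0.7 to 8.7 in whole prostate and 100 to 111.2 in epithelium, whereas 1388583_at reads 95.2 to 151.7 and 185.9 to 288.8.

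Some leukocyte markers were lower in control epithelium, where Cxcl13 was lower. Macrophage markers gave 6 of 14 called lower and 0 higher (median -0.96), beside 15% of all probe sets called lower. Without Lyz2 and Cd14, which carry most of the list's signal and were not called, the other 12 genes summed to 402 to 453 in control epithelium, against 810 to 832 in control whole prostate. With them the sum was 8881 to 10344, against 7728 to 8345. Those called included Mrc1, the mannose receptor (-1.48 ± 0.17), and C1qa, a complement subunit (-1.47 ± 0.16). T and NK cell markers gave 2 of 9 lower and 1 higher (median -0.56), near the share of all probe sets, with Cd3g at -0.86 ± 0.13, Cd3d at -0.92 ± 0.18 and Cd3e at 0.97 ± 0.28. Mrc1, Cd3d and Adgre1, a further macrophage marker called lower (-1.17), passed the filter only through the whole prostate groups, so they had to differ. B and plasma cell markers gave 1 of 5 lower and 0 higher (median -0.02), with Jchain, the joining chain of secreted antibodies, at -1.89 ± 0.20 and Ms4a1, the B cell marker CD20, at 0.65 ± 0.33, not called. The lymphoid chemokine and lymphotoxin genes gave 1 of 5 lower and 0 higher (median -0.22), with Ccl21, a lymphoid chemokine, at -1.06 ± 0.22, and 2 of the 5 were positive. The part of these cells in the level of Cxcl13 was not tested.

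The genes whose pattern was nearest to the members with the widest range were found by the mean absolute difference over the 8 arrays, after each gene was centred on its own mean. For Cxcl1, whose group means spanned 6.31, they were Atf3 (0.562), Ccl20 (0.587) and Fosb (0.633). For Cxcl2, which spanned 3.67, they were Klf6 (0.229), Jun (0.247) and Krt17 (0.258). For Cxcl10, which spanned 2.95, they were Klf2 (0.102), Tiparp (0.141) and Dusp6 (0.156). Atf3, Fosb, Klf6, Jun and Klf2 encode transcription factors, Dusp6 is a phosphatase of MAP kinases and Krt17 a keratin of basal cells. Since the arrays fall into a whole prostate and an epithelium cluster, the likeness includes the gap between these, and it is given as a description.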

How the data were processed

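The deposited table holds probe set intensities on a linear scale. Which software the authors used to make it: not given in the sources used here. Each array had a 2% trimmed mean of 124.3 to 124.6, so arrays were scaled before deposit. Control probe sets (57 of 31099) were left out. Intensities were taken to log2(value + 16), quantile normalised, and probe sets under the 30th percentile of mean were left out, which kept 21729. A mean of about 13.7 intensity units was the limit. Group means of all 8 arrays were fitted with limma 3.58.1 in R 4.3.3 (4 residual and 2.62 prior degrees of freedom), with Benjamini-Hochberg adjustment over all probe sets tested. The fit was tested on simulated data with 100 changes of 1 and 100 of 2, in log2, for each comparison. In the order whole prostate lineage, epithelium lineage and control groups, 36%, 31% and 29% of the changes of 1 were called. For changes of 2 these shares were 92%, 87% and 77%. False calls were 3 of 131, 11 of 129 and 7 of 113. Python 3.11.15 and matplotlib 3.10.9 were used for sequences and plots.

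Genes were named from probe sets with 1 symbol in the platform annotation. List values use the brightest probe set of each gene. The members, lists, motifs and tests were chosen with earlier results of these data known, and the contrast of preparations in the vinclozolin arrays was added after the values were seen. Named genes are all members, the CXC receptors, up to 4 genes of lowest p per list and comparison, and the 3 nearest patterns. Ifng, Pbsn, Adam10, S100a8, S100a9, Cd79b, Lyz2, Cd14, Socs3, Tnf, Pdgfrb, Adgre1, Cxcl6 and Lcn2 are named for their roles or for a limit they set where they fall outside it. The comparisons with epithelium control or whole prostate control share those arrays. The number of arrays limits the precision. The labels do not state whether the replicate numbers pair the arrays. Deviations of same-numbered arrays from their group means correlated between -0.02 and 0.029, so no shared deviation was seen, which cannot settle the pairing.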

Additional observations from a re-analysis of the deposited data

How the results depend on the processing

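Over 18 other settings, none of the member values that were called changed direction. Of 978 member values under them, 934 stayed on their side of the threshold, 25 lost a call and 19 gained one. Called CXC probe sets over the 4 comparisons numbered 11, and 18 with a trended robust prior, and from 8 to 11 with 1 array left out.

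Calls in limma over all probe sets, in the order whole prostate lineage, epithelium lineage and difference of effects, numbered 379, 2 and 63. They became 235, 0 and 40 with a pseudocount of 1, and 1133, 66 and 262 with one of 64. Without the filter they were 200, 0 and 32, and with the filter at the 50th percentile 965, 23 and 169. A trended robust prior gave 1814, 205 and 540. The 2 lineage counts were 65 and 0 with the compared arrays alone, and 871 and 0 with array weights. Where the epithelium count was 0, 2254 (pseudocount of 1), 2967 (no filter), 1823 (compared arrays alone), 1933 (array weights) and 2383 (replicate block) probe sets had an unadjusted p under 0.05. The epithelium count was 1 with median centring. With 1 array left out the counts ranged from 26 to 220 in whole prostate, were 0 in epithelium (2059 to 2649 at an unadjusted p under 0.05), and ranged from 5 to 18 for the difference. The control comparison had 6051 calls, and from 2661 to 5751 with 1 array left out. The replicate block gave 177, 0 and 26 calls, although the labels do not state that the numbers pair the arrays. It changed no call of a CXC probe set. Among calls in whole prostate 47.0% were higher, and 36.1% with median centring. The causes of these changes were not tested. Dim probe sets, such as those of Cxcl3, allow no firm statement at this signal.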
